A study of Mus musculus with 16 samples.

Results

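The genes described here are 34 genes of glucose metabolism, chosen by symbol: glucose uptake, glycolysis, lactate production and export, the pentose phosphate pathway and the entry of pyruvate into mitochondria. They are 34 of the 23337 gene symbols counted in each library. A total of 33 were found under their present symbol and Pkm under its older symbol Pkm2. All 34 passed the filter on low counts. The list was drawn up with earlier results of these data known, including that Pcx and G6pdx move in opposite directions with miR-24.

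RNA was sequenced from mouse CD4+ T cells, 16 libraries in 4 groups of 4, after transfection with a mimic of miR-23a, miR-24 or miR-27a or with a control mimic. All 4 groups had the same genotype, Dgcr8f/f Tbet-/- CD4-cre on the C57BL/6 strain. CD4-cre deletes the floxed Dgcr8 alleles during T cell development in the thymus, and cells without Dgcr8 cannot make most of their own microRNAs. The cells also lacked Tbet (Tbx21), the transcription factor that directs T cells to the Th1 fate. T cells from spleen and lymph nodes were activated through CD3 and CD28 with IL-4 at 10 units/ml for 3 days, then kept in IL-2 at 20 units/ml for 2 days. Mimics were given at 500 nM on days 1 and 4, and live YFP+ CD4+ cells, which carry the Cre reporter, were sorted. Control cells therefore shared the Dgcr8 deletion, the lack of Tbet, the IL-4 culture and the transfections, and no group had a normal set of microRNAs. Age, sex and the mouse behind each library are not given in the sources used here, so p-values measure the spread between libraries, which may in part be technical.

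Glycolysis splits glucose into pyruvate in a preparatory phase that uses ATP and a payoff phase that returns it. Pyruvate is then reduced to lactate or enters mitochondria, where pyruvate dehydrogenase makes acetyl-CoA and pyruvate carboxylase makes oxaloacetate. The pentose phosphate pathway branches off at glucose 6-phosphate: its oxidative arm makes NADPH and its non-oxidative arm exchanges sugar phosphates with glycolysis. Activated T cells are known for high glucose uptake and for making lactate even when oxygen is present. A microRNA guides Argonaute to messenger RNAs that pair with its seed, bases 2 to 8 from its 5′ end, and such messages are usually lowered.

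The mature sequences of the 3 mimics set which messages they can pair with. They are shown 5′ to 3′ from RefSeq (GRCm38.p6) with the seed in capitals. The labels do not name the arm, and the 3p arms are shown. The 3 seeds differ from one another.
mmu-miR-23a-3p: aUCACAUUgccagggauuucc
mmu-miR-24-3p: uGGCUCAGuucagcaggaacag
mmu-miR-27a-3p: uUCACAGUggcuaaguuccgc

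The 3 are encoded side by side at chr8:84208563-84208583, chr8:84208875-84208896 and chr8:84208727-84208747, all on the plus strand. The same mature miR-24 is also encoded at chr13:63301251-63301272.

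The longest annotated 3′ UTR of each member was searched for sites of the 3 seeds. An 8mer is the full seed match followed by A, and a 7mer has the seed match or 6 of its bases followed by A. A total of 4 of 34 members held a miR-24 8mer (11.8%), against 8.95% of 12015 tested genes with an annotated 3′ UTR. Any miR-24 site was found in 9 members (26.5%, against 27.0%). For miR-23a, 1 member (Dlat) held an 8mer (2.94%, against 7.24% of tested genes) and 7 held any site (20.6%, against 25.3%). For miR-27a, 1 member (Pdha1) held an 8mer (2.94%, against 6.61%) and 4 held any site (11.8%, against 29.8% of tested genes). The members' 3′ UTRs had a median length of 779 bases, shorter than the 1236 of all tested genes. The 4 miR-24 8mers are printed, with the 7mer of Hk1, which is 1 of 5 members with only 7mers of miR-24. The 7mers of the others, Pdk1, Pgd, Slc16a3 and Tpi1, are not printed. Capitals mark the site, and the build is GRCm38.
G6pdx (8mer): actggccctatCTGAGCCAcccatctttcc
Pfkl (8mer): gatcttaaccgCTGAGCCAtctctccagtc
Pkm (8mer): cagggccctacCTGAGCCAggggtggagga
Slc16a1 (8mer): atgctgtaccaCTGAGCCAcaacccacagg
Hk1 (7mer): catcgctttagTGAGCCAttgtcgtatgt

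These sites lie at chrX:74409926-74409933 (minus strand), chr10:77987666-77987673 (minus), chr9:59679016-59679023 (plus), chr3:104656683-104656690 (plus) and chr10:62269141-62269147 (minus), each in a 3′ UTR. A site is a match of letters and does not show binding.

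Gene reads per library ran from 2120408 to 13714841 in 15 libraries, but control replicate 1 held only 51474, so that 1 read there is worth 16.3 CPM (reads of a gene per 1000000 gene reads, after TMM scaling) and 3 reads 48.8 CPM. A 0 in that library therefore allows a level of up to 48.8 CPM. The 10 T cell markers summed to between 3011 and 4953 CPM in every library, and Tbx21 did not exceed 5.20 CPM. The mean T cell marker sum was 4286 ± 701 CPM in control and 4021 ± 327 in miR-23a libraries (SD, n = 4). It was 3352 ± 319 CPM in miR-24 and 3395 ± 207 in miR-27a libraries. Dgcr8 reads were present at 32.5 to 58.4 CPM in the 15 deeper libraries; which exons they came from is not known, so they do not check the deletion. CD8 T cell markers (Cd8a and Cd8b1) summed to at most 35.7 CPM, B cell markers to 18.4, myeloid markers to 17.8, and NK cell markers to 0.0764. The 45S ribosomal RNA precursor Rn45s took 0.30% to 4.41% of gene reads in control libraries and 1.65% to 19.1% in miR-24 libraries.

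Levels in control cells, per kilobase of merged exons and over the 3 deeper control libraries, were highest for Ldha, which reduces pyruvate to lactate, at 262 ± 72.9 CPM per kb (SD, n = 3). The next 5 were Pgam1 at 171 ± 18.4, Pgk1 at 139 ± 9.56, Gapdh at 138 ± 50.0, Aldoa at 122 ± 32.6 and Pkm at 112 ± 43.5 CPM per kb. Neighbours in this order, from Pgk1 down to Pkm, differed by less than either SD, and the order among these 4 is not resolved. The length used also moves it: per kb of the longest transcript, Pkm (230 ± 89.5) and Aldoa (230 ± 61.3) came next after Ldha and before Pgam1 (191 ± 20.5), and Ldha stayed first at 477 ± 133. G6pdx, the first enzyme of the oxidative pentose phosphate arm, came seventh at 55.7 ± 19.2 CPM per kb of merged exons, and eighth by longest transcript. The other enzymes of its arm were lower, with Pgd at 4.30 ± 1.83 and Pgls at 0.905 ± 0.504. The lowest members were Eno1 at 0.242 ± 0.228, Aldoc at 0.430 ± 0.380 and Pcx at 0.618 ± 0.257 CPM per kb. The counts of Eno1 cannot be taken as the level of the enolase of T cells, since 72.2% of the 50-base stretches of its transcripts also occur in transcripts of other genes, mostly Eno1b.

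**Figure D1:**
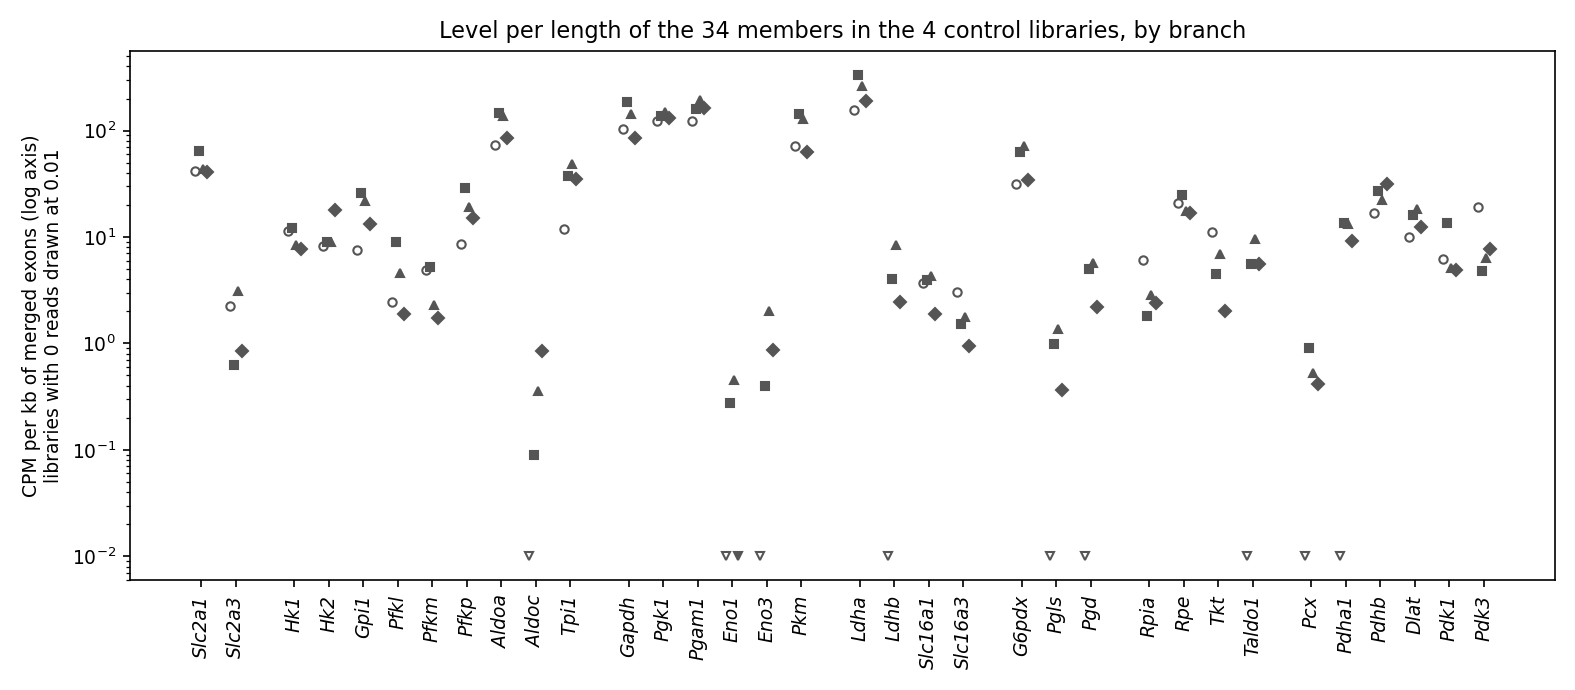
Level of each of the 34 members in the 4 control libraries, in CPM per kb of merged exons on a log axis, grouped by branch from glucose uptake on the left to pyruvate entry on the right. Circles, squares, triangles and diamonds are replicates 1 to 4, the shallow replicate 1 is hollow, and downward triangles at 0.01 mark libraries with 0 reads. Ldha stands highest, at 262 ± 72.9 CPM per kb without replicate 1, and Eno1, Aldoc and Pcx lowest.

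Which members differ when a T cell without its own microRNAs receives miR-24 is the first comparison. Pcx, pyruvate carboxylase, was higher and G6pdx, glucose 6-phosphate dehydrogenase, was lower. With the replicate number as a block, 5 members rose and 2 fell among 34 (edgeR quasi-likelihood test, adjusted p under 0.05). The background was 4.56% of all 12952 genes called, 2.32% higher and 2.25% lower. Since the directions of Pcx and G6pdx were known when the members were chosen, the count is not a test of the list. Those that rose were Pcx, Hk2, Aldoc, Pgls and Slc16a3, and those that fell were G6pdx and Pgk1. Without the block 2 members were called, Pcx and G6pdx, against 0.849% of all genes. The miR-24 and control libraries did not overlap for 3 higher members (Pcx, Pgls and Eno3) and 2 lower ones (G6pdx and Pgk1), against 4.04% and 2.74% of all genes. Control replicate 1 had 0 reads of each of the 3 higher members, which allows a level of up to 48.8 CPM. The numbers did not meet the rule for paired libraries in this comparison, so both values are given for each call. The median log2 fold change of the 34 was 0.22, against 0.04 over all genes. Dropping control replicate 4 lowered this median to 0.09 and dropping control replicate 2 raised it to 0.51. It was 0.13 with miR-24 replicate 4 dropped and 0.37 with miR-24 replicate 2 dropped.

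Pcx, which turns pyruvate into oxaloacetate in mitochondria (chr19:4510472-4621752, plus strand), was at 0, 4.31, 2.52 and 1.98 CPM in control replicates 1 to 4. With miR-24 it was at 18.5, 20.4, 46.8 and 32.9 CPM, above every control library. With miR-27a it was at 13.2, 6.58, 22.4 and 11.1 CPM, and with miR-23a at 5.29, 2.96, 3.61 and 10.9 CPM. The miR-27a libraries also lay above all control libraries, while the miR-23a libraries overlapped them. The 0 reads of control replicate 1 allow up to 48.8 CPM, which is above every miR-24 and miR-27a library. The log2 fold change of miR-24 against control was 3.24 ± 0.49 (SE; edgeR adjusted p = 0.00129, or 0.00946 without the block). The call held whichever of the 16 libraries was dropped, with log2 fold changes from 2.91 to 4.09. The deposited Pcx reads in control libraries were few, 0, 44, 28 and 13, and the fold change rests on these. No stretch of 50 bases of Pcx occurs in another gene's transcripts, and its 3′ UTR held no site of any of the 3 seeds.

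G6pdx, which commits glucose 6-phosphate to the pentose phosphate pathway and makes NADPH (chrX:74409483-74429194, minus strand), was at 97.7, 192, 218 and 105 CPM in control libraries. With miR-24 it was at 40.9, 45.1, 49.5 and 64.0 CPM, below every control library. The 97.7 CPM of control replicate 1 rests on 6 reads. The miR-23a libraries, at 77.7, 71.3, 88.0 and 119 CPM, and the miR-27a libraries, at 116, 132, 307 and 150 CPM, lay above every miR-24 library and overlapped the control libraries. Against control, miR-24 gave a log2 fold change of -1.63 ± 0.27 (edgeR adjusted p = 0.00256, or 0.0120 without the block), and the call held in all 16 fits with 1 library left out. G6pdx carries 1 of the miR-24 8mers printed above. The other 3 members with an 8mer were not called: their log2 fold changes were -0.05 ± 0.57 for Pfkl, 0.09 ± 0.32 for Slc16a1 and 0.54 ± 0.31 for Pkm. A share of 7.65% of the 50-base stretches of G6pdx also occurs in transcripts of other genes (G6pd2).

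In the oxidative arm 1 of the other 2 enzymes was called, in the opposite direction to G6pdx. Pgls, the lactonase that acts just after it (chr8:71592176-71601092, plus strand), was at 0, 3.73, 5.13 and 1.37 CPM in control libraries and at 7.52, 7.24, 16 and 14.9 CPM with miR-24. All 4 miR-24 libraries were above all 4 control libraries, although replicate 1 of the control allows a higher level than its 0. Its log2 fold change was 1.71 ± 0.43 (edgeR adjusted p = 0.0326, or 0.126 without the block), and the call held in 10 of the 16 fits with 1 library left out. Pgd, the next dehydrogenase that makes NADPH, was at 27.7 ± 11.8 CPM in the 3 deeper control libraries and 17.9 ± 6.60 CPM with miR-24 (SD, n = 4). Its log2 fold change of -0.42 ± 0.35 had the sign of that of G6pdx and was not called. Summed over the 3 enzymes, the oxidative arm was at 177 ± 79.3 CPM in control libraries (SD, n = 4) and 79.1 ± 20.3 CPM with miR-24, and most of that sum was G6pdx.

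In the non-oxidative arm no member of 4 was called by edgeR with miR-24, and 3 had an unadjusted p under 0.05, where 20.3% of all genes did. Tkt, transketolase, had a log2 fold change of 0.97 ± 0.31 (edgeR adjusted p = 0.0843) and Rpia, ribose 5-phosphate isomerase, one of -1.09 ± 0.35 (edgeR adjusted p = 0.0789). The summed level of the 4 genes was 136 ± 35.9 CPM in control libraries and 140 ± 9.01 CPM with miR-24.

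**Figure D2:**
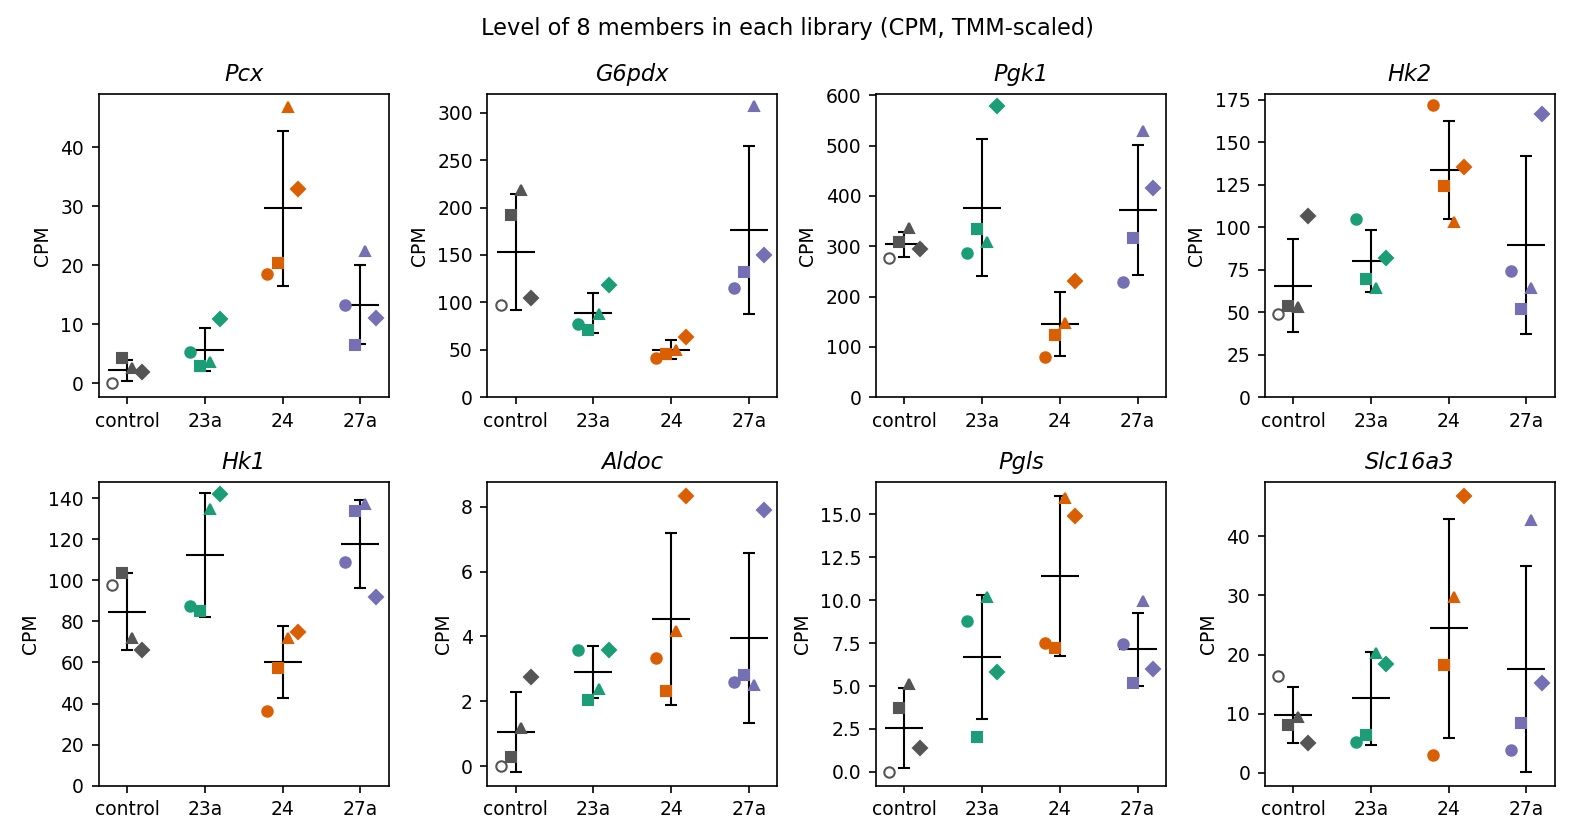
Level in CPM of 8 members in each of the 16 libraries, by mimic group. Circles, squares, triangles and diamonds are replicates 1 to 4, the hollow circle is the shallow control replicate 1, and bars are the mean ± SD of 4 libraries. The miR-24 libraries of Pcx lie at 18.5 CPM or more and all control libraries at 4.31 or less, while those of G6pdx lie at 64.0 or less and all control libraries at 97.7 or more.

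Hexokinase traps glucose in the cell by phosphorylation, and T cells express the forms Hk1 and Hk2. Hk2 (chr6:82725025-82774454, minus strand) was at 48.8, 53.9, 53.2 and 106 CPM in control libraries and at 172, 124, 103 and 136 CPM with miR-24. The highest control library, replicate 4, overlapped the lowest miR-24 library. For Hk2 the log2 fold change was 0.96 ± 0.25 (edgeR adjusted p = 0.0344, or 0.218 without the block), and leaving out any of the 4 control libraries, or miR-24 replicate 2 or 3, ended the call (highest adjusted p 0.142).

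Hk1 was at 97.7, 104, 71.7 and 65.8 CPM in control libraries and at 36.3, 57.4, 71.8 and 75.0 CPM with miR-24. These overlapped, and the log2 fold change of -0.40 ± 0.25 was not called. Hk1 was lower with miR-24 than with the other mimics: its log2 fold change was -0.92 ± 0.23 against miR-23a (edgeR adjusted p = 0.0247, or 0.102 without the block) and -1.0 ± 0.23 against miR-27a (edgeR adjusted p = 0.0188, or 0.0780 without the block). Each of these calls held in 10 of the 16 fits with 1 library left out. Dropping miR-24 replicate 1, 2 or 3 ended both, as did miR-23a replicate 1, 3 or 4 for the first (highest adjusted p 0.129) and miR-27a replicate 1, 2 or 3 for the second (0.0902). Of the 2 genes' summed level per kb, Hk1 made up 48.6 ± 13.0% in control, 49.3 ± 10.0% in miR-23a, 50.6 ± 16.2% in miR-27a and 24.5 ± 8.48% in miR-24 libraries (SD, n = 4). The lowest control share, 30.2%, lay within the miR-24 range of 12.9% to 32.8%.

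Phosphofructokinase catalyses the committed step of glycolysis. Its 3 genes were not called with any mimic: for miR-24 the log2 fold changes were -0.05 ± 0.57 for Pfkl, 0.83 ± 0.38 for Pfkm and 0.03 ± 0.20 for Pfkp. Pfkp made up 68.7 ± 11.4% of their level per kb in control libraries and 67.3 ± 14.3% with miR-24. The aldolases split the 6-carbon sugar, and Aldoa made up at least 97.1% of the aldolase level per kb in every library. Aldoc, the minor form (chr11:78322968-78327781, plus strand), was at 0, 0.294, 1.17 and 2.74 CPM in control libraries and at 3.34, 2.30, 4.16 and 8.34 CPM with miR-24. Its lowest miR-24 library was below the highest control library. The log2 fold change was 1.88 ± 0.46 (edgeR adjusted p = 0.0295, or 0.226 without the block), called in 10 of the 16 fits with 1 library left out. Aldoa itself had 0.48 ± 0.31 and was not called.

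In the payoff phase, 1 of 6 members was called with miR-24. Pgk1, phosphoglycerate kinase, which makes the first ATP of this phase (chrX:106187100-106203699, plus strand), was at 277, 308, 336 and 294 CPM in control libraries. With miR-24 it was at 79.0, 123, 147 and 230 CPM, below every control library. It was at 287, 334, 308 and 579 CPM with miR-23a and at 229, 316, 529 and 416 CPM with miR-27a, so the highest miR-24 library and the lowest miR-27a library were about level. The log2 fold change of miR-24 against control was -1.11 ± 0.23 (edgeR adjusted p = 0.00879, or 0.124 without the block). Leaving out control replicate 3 or miR-24 replicate 3 ended this call (highest adjusted p 0.0530). A share of 68.0% of the 50-base stretches of Pgk1 also occurs in Pgk1-rs7 or other genes' transcripts, so its count depends on how such reads were handled. The deposited counts hold a summary line, apart from the genes, for alignments that were not unique. It took 32.0% to 37.0% of the library total in control and 35.4% to 44.2% in miR-24 libraries. The range was 27.9% to 44.8% with miR-23a and 29.3% to 34.2% with miR-27a. Its bearing on the Pgk1 counts was not tested. No site of the miR-24 seed was found in its 3′ UTR.

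Other enzymes near Pgk1 in the pathway were not called with miR-24 against control. Tpi1, triose phosphate isomerase, had a log2 fold change of -0.70 ± 0.26 (edgeR adjusted p = 0.13). The log2 fold change with miR-24 was 0.43 ± 0.28 for Gapdh, 0.14 ± 0.20 for Pgam1 and 0.54 ± 0.31 for Pkm, and none was called. Gapdh has many processed copies in the genome, and 82.5% of its 50-base stretches occur in other transcripts. Over the 6 payoff genes the summed level was 1662 ± 432 CPM in control libraries and 2032 ± 863 CPM with miR-24 (SD, n = 4), which overlapped.

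Of the lactate genes, Slc16a3, which exports lactate (MCT4; chr11:120948480-120960868, plus strand), was called with miR-24. It was at 16.3, 8.04, 9.46 and 5.03 CPM in control libraries and at 3.01, 18.2, 29.8 and 46.9 CPM with miR-24. Replicate 1 went the other way from replicates 2 to 4, and the single read of control replicate 1 sets its 16.3 CPM. Its log2 fold change was 1.74 ± 0.47 (edgeR adjusted p = 0.0432, or 0.351 without the block), called in 7 of the 16 fits with 1 library left out. Ldha had 0.18 ± 0.25, Ldhb -0.04 ± 0.38 and Slc16a1 (MCT1) 0.09 ± 0.32, and none was called.

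Glucose carriers and the pyruvate dehydrogenase group were not called with miR-24. Slc2a1 (GLUT1) had a log2 fold change of 0.47 ± 0.23 and Slc2a3 (GLUT3) one of 0.71 ± 0.43. The subunits of pyruvate dehydrogenase had -0.01 ± 0.26 (Pdha1), -0.08 ± 0.21 (Pdhb) and -0.41 ± 0.24 (Dlat), and the kinases that switch it off had 0.26 ± 0.23 (Pdk1) and -0.07 ± 0.30 (Pdk3). Of the 6 genes for pyruvate entry, Pcx was therefore the 1 that was called. A p that misses the threshold does not show that these levels were equal.

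**Figure D3:**
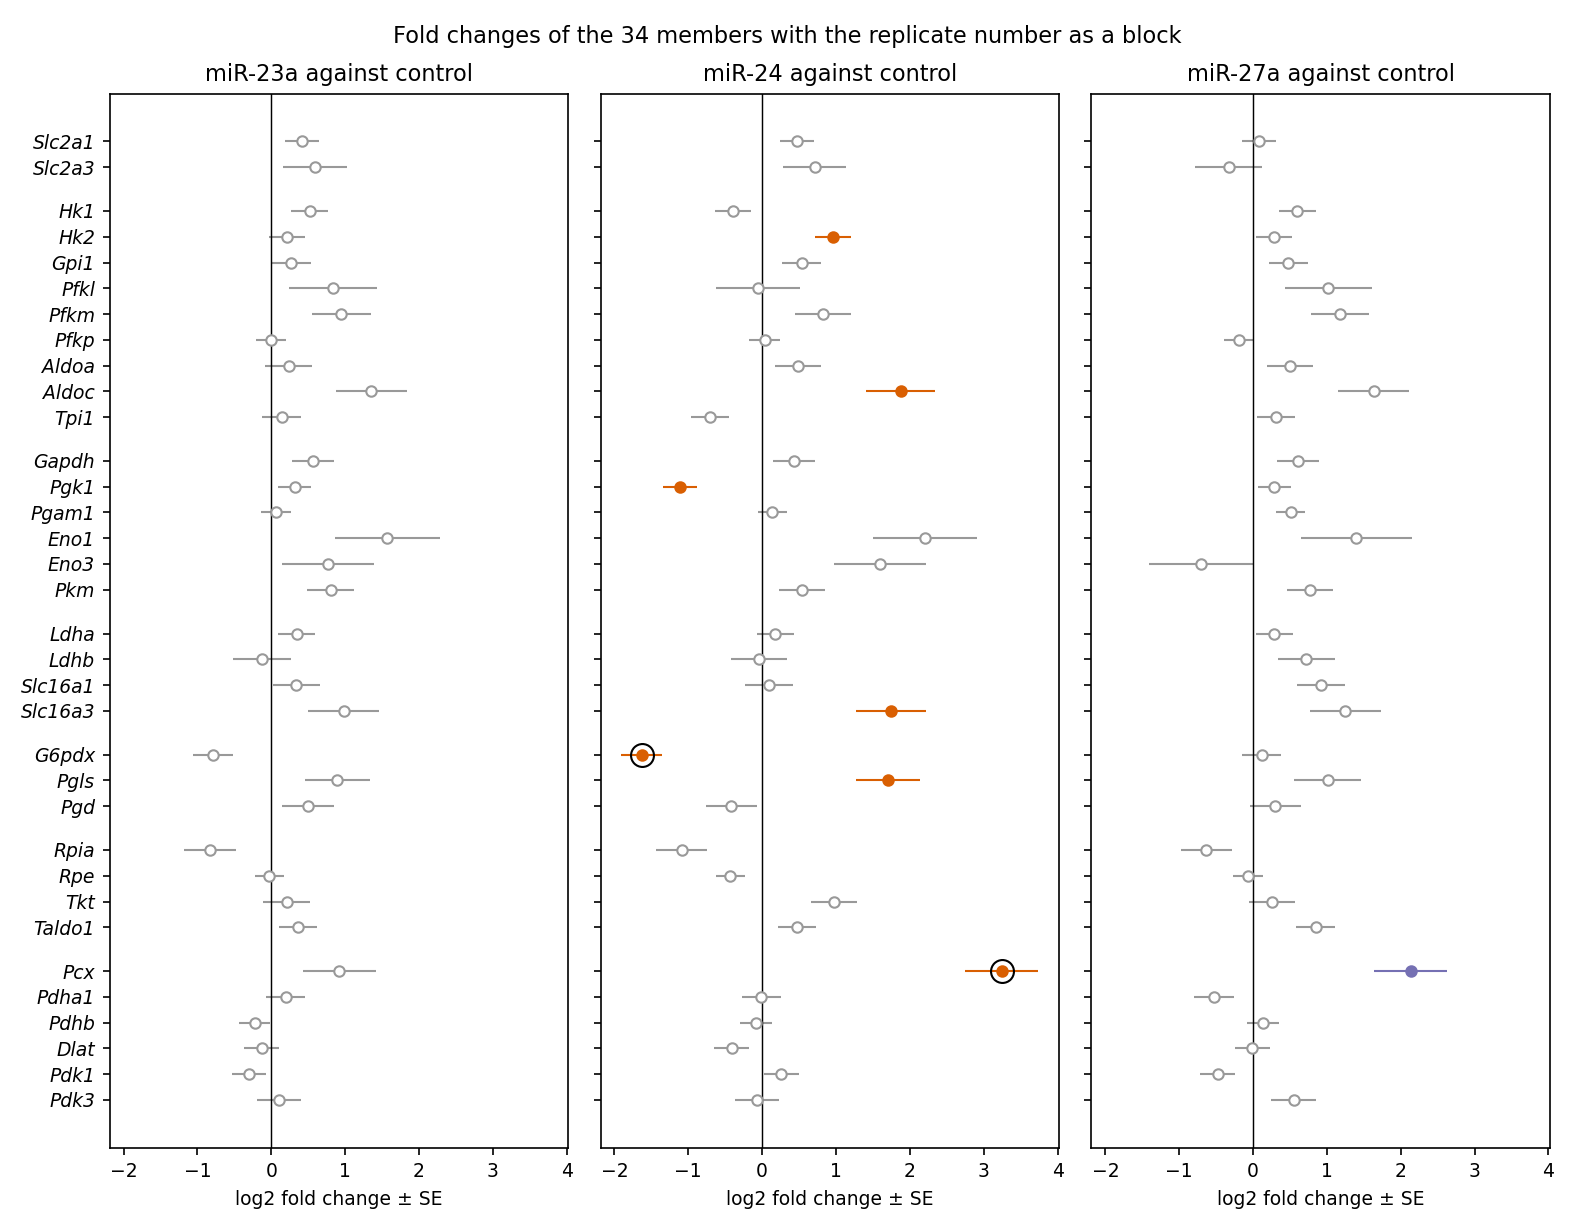
Log2 fold change ± SE of the 34 members for each mimic against control, with the replicate number as a block, in pathway order from glucose carriers at the top to pyruvate dehydrogenase kinases at the bottom. Filled points have an edgeR adjusted p under 0.05 and rings mark those that also pass without the block. There are 7 filled points for miR-24, 1 for miR-27a and 0 for miR-23a, and the rings are on Pcx and G6pdx with miR-24.

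With miR-27a, Pcx rose by a log2 fold change of 2.13 ± 0.50 against control (edgeR adjusted p = 0.0281, or 0.0745 without the block). It was the 1 member of 34 that was called, against a background of 3.07% of all genes (1.75% higher), and 11 members had an unadjusted p under 0.05, where 21.8% of all genes did. In this comparison the numbers met the rule for paired libraries. Leaving out control replicate 3 or 4, or miR-27a replicate 1 or 3, ended the call (highest adjusted p 0.189). The next smallest adjusted p were 0.0670 for Aldoc (log2 fold change 1.63 ± 0.48) and 0.0777 for Taldo1, transaldolase (0.85 ± 0.26). G6pdx, with 0.12 ± 0.27, was not called. The median over the 34 was 0.39, against 0.02 over all genes. The single 8mer member for miR-27a, Pdha1, had -0.53 ± 0.27.

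With miR-23a, 0 of 34 members were called against control by edgeR, where the background was 0.425% of all genes. At an unadjusted p under 0.05 there were 6, where 17.0% of all genes passed, and DESeq2 and limma also called 0. The smallest adjusted p was that of G6pdx, 0.171, at a log2 fold change of -0.79 ± 0.27. Pcx had 0.92 ± 0.50, and Dlat, the 8mer member for miR-23a, -0.13 ± 0.24. The median over the 34 was 0.33, against 0.04 over all genes, and 0.14 without control replicate 4 or 0.21 without miR-23a replicate 4.

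These 3 comparisons share the 4 control libraries, and the number of members above control differed between same-numbered libraries. With miR-23a, 23, 8, 18 and 31 of 34 members had a higher CPM than the control library of the same number, in replicates 1 to 4. With miR-24 the counts were 17, 14, 21 and 27, and with miR-27a 25, 19, 26 and 30. With miR-27a more than 17 members were higher in each of the 4 numbers, which was not so with miR-23a or miR-24. Control replicate 1 had 0 reads of Aldoc, Eno1, Eno3, Ldhb, Pgls, Pgd, Taldo1, Pcx and Pdha1. These counted as higher in replicate 1 with every mimic, whatever their level in control cells. No share over all genes was computed for these counts, and members are not replicates. The numbers met the rule for paired libraries with control for miR-27a only. Summed over the 34 members, the control libraries held 3093, 5499, 4823 and 3384 CPM, so replicates 1 and 4 were low and replicates 2 and 3 high.

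Comparisons between mimics set no control library against a mimic, although control libraries entered the same fit. Against miR-23a, miR-24 libraries had 1 member higher and 3 lower, against 5.38% of all genes called (2.65% higher, 2.73% lower). Without the block 2 members, Pcx and Pgk1, were called, against 1.1%. Pcx rose by 2.32 ± 0.42 (edgeR adjusted p = 0.00328, or 0.0149 without the block). Pgk1 had -1.43 ± 0.22 (edgeR adjusted p = 0.000876, or 0.0341 without the block). The others were Hk1, given above, and Tpi1 at -0.85 ± 0.24 (edgeR adjusted p = 0.0498, or 0.527 without the block). The Tpi1 call held in 4 of the 16 fits with 1 library left out. G6pdx had -0.84 ± 0.25 and missed the threshold (edgeR adjusted p = 0.0618).

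Against miR-27a, miR-24 libraries had 1 member higher and 4 lower, against 4.42% of all genes called (1.8% higher, 2.62% lower). Without the block 2 members, G6pdx and Pgk1, were called, against 0.88%. G6pdx had -1.75 ± 0.26 (edgeR adjusted p = 0.00132, or 0.0142 without the block). Pgk1 had -1.40 ± 0.22 (edgeR adjusted p = 0.00157, or 0.0434 without the block). Both calls held in all 16 fits with 1 library left out. Tpi1 had -1.01 ± 0.25 (edgeR adjusted p = 0.0239, or 0.362 without the block), called in 10 of the 16 fits with 1 library left out. Eno3, an enolase best known from muscle, rose by 2.30 ± 0.63 (edgeR adjusted p = 0.0446, or 0.106 without the block), called in 7 of those fits. It was at 5.35, 7.90, 5.6 and 4.47 CPM with miR-24 and at 1.94, 0.470, 0.228 and 2.58 CPM with miR-27a, without overlap. Pcx differed by 1.11 ± 0.40 between miR-24 and miR-27a, which was not called (edgeR adjusted p = 0.131).

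Between miR-27a and miR-23a 0 of 34 members were called by edgeR, against 2.95% of all genes. An unadjusted p under 0.05 was found for 7, where 15.9% of all genes had one. DESeq2 called 2 members, where it called 703 of 12449 genes, and limma 1, where it called 523 of 12952. A single test for any difference among the 4 groups called 6 members, Pcx, G6pdx, Pgk1, Hk1, Hk2 and Tpi1, against 9.68% of all genes. Without the block it called 2, Pcx and G6pdx, against 1.94%. The directions of Pcx and G6pdx with miR-24 were known when the members were chosen. Neither these counts nor those of miR-24 against the other mimics are therefore a test of the list.

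The members were set beside their seed sites. Among the 9 with any miR-24 site, 1 fell (G6pdx) and 1 rose (Slc16a3) with miR-24. The 25 without a site held the other 5 called members, 4 higher and 1 lower. The median log2 fold change was -0.05 with a site and 0.47 without one, and the ranges, -1.63 to 1.74 and -1.11 to 3.24, overlapped. For miR-27a against control the order was the other way, with medians of 0.71 for 4 members with its site and 0.31 for 30 without. For miR-23a against control the medians were -0.13 for 7 members with its site and 0.34 for 27 without.

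**Figure D4:**
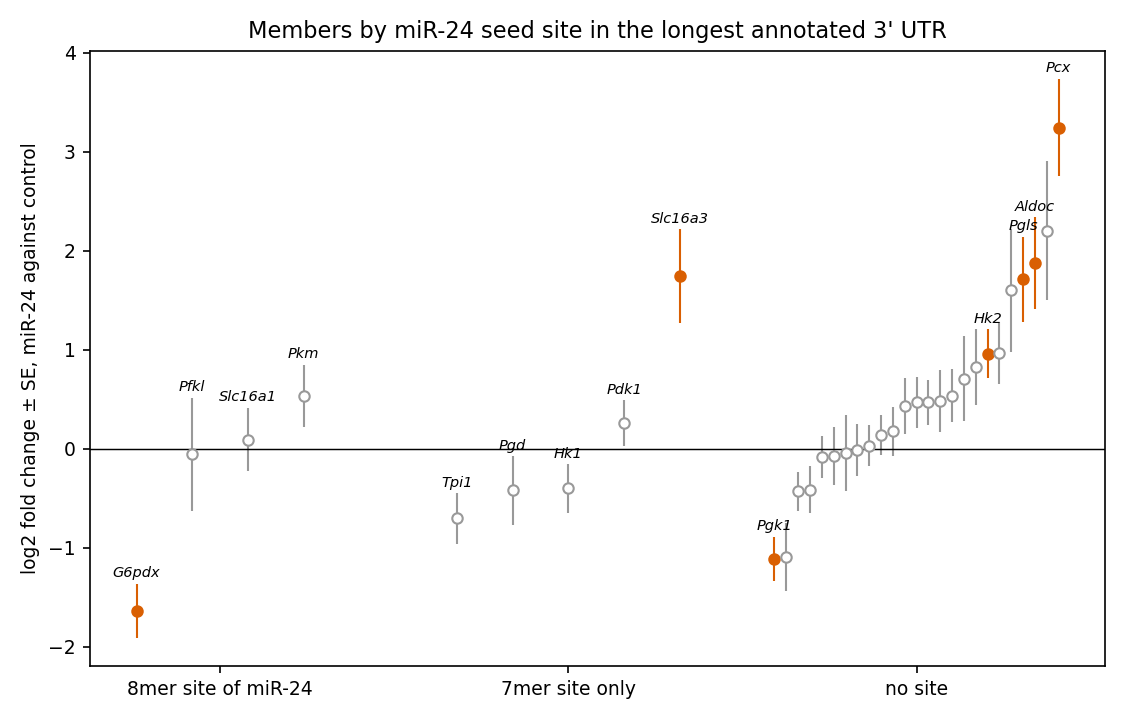
Log2 fold change ± SE with miR-24 against control for members with a miR-24 8mer (4), a 7mer only (5) or no site (25) in the longest annotated 3′ UTR. Filled points have an edgeR adjusted p under 0.05 with the replicate block. G6pdx, at -1.63, is the called member among the 4 with an 8mer, and Pcx, at 3.24, has no site.

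Promoters, from 250 bases before to 50 after the RefSeq start (GRCm38.p6), were found for 33 members; Slc2a3 had none. The core ACGTG, which HIF proteins bind, was searched on both strands and is contained in CACGTG, the E-box that Myc binds. It was in at least 1 promoter of 17 of 33 members (51.5%), against 21.8% of all genes and 28.7% of genes tested. Of all promoters 19.6% held it, and 19 of the 47 promoters of members. CACGTG was in 4 members, Ldha, Pcx, Pfkm and Slc16a1 (12.1%, against 8.09% of all genes and 11.5% of genes tested). Of the 7 members called with miR-24 against control, 6 held ACGTG and Pgls did not, and these 6 include both genes that fell and 4 that rose.

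Other genes around the pathway came from 5 lists of 106 genes, of which 93 were tested. With miR-24, 0 rose and 5 fell against control (5.38% of the 93, where 4.56% of all genes were called). Epas1, the HIF-2 alpha factor, had a log2 fold change of -2.49 ± 0.23 (edgeR adjusted p = 1.98e-05, or 0.0101 without the block). Gpd2, which passes electrons from cytosolic NADH to the respiratory chain, had -1.37 ± 0.17 (edgeR adjusted p = 0.000335, or 0.0169 without the block). The others were Vhl, which marks HIF proteins for destruction (-1.07 ± 0.26), Mdh1, cytosolic malate dehydrogenase (-1.17 ± 0.29), and Foxo1 (-0.73 ± 0.18). None of these 3 passed without the block, with adjusted p of 0.0669, 0.238 and 0.341. Hif1a and Myc, which drive glycolytic genes in activated T cells, had -0.17 ± 0.16 and -0.04 ± 0.33 and were not called.

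With miR-23a 1 of the 93 fell (1.08%, where 0.425% of all genes were called). It was Nfe2l2 (NRF2), a known activator of pentose phosphate genes, with -1.52 ± 0.29 (edgeR adjusted p = 0.0204, or 0.174 without the block). With miR-27a 1 rose, Mdh2 (0.94 ± 0.23), and 4 fell: Epas1 (-1.55 ± 0.22), Nfe2l2 (-1.12 ± 0.28), Emb (-0.98 ± 0.22) and Acly (-0.73 ± 0.19). These were 5.38% of the 93, where 3.07% of all genes were called. Without the block none of the 5 passed, the smallest adjusted p being 0.0969 for Emb. By list, the calls with miR-24 were 1 of 20 other glycolysis genes, 0 of 10 pentose phosphate genes, 0 of 18 pyruvate and lactate genes, 1 of 21 citric acid cycle genes and 3 of 24 regulators. Between mimics, 6 of the 93 (6.45%) were called for miR-24 against miR-23a, 8 (8.60%) against miR-27a, and 4 (4.30%) for miR-27a against miR-23a, where 5.38%, 4.42% and 2.95% of all genes were called. Without the block these counts were 1, 0 and 1. With the block, 4 were higher and 2 lower with miR-24 than with miR-23a. Against miR-27a, 1 was higher and 7 lower with miR-24, and for miR-27a against miR-23a 4 were higher and 0 lower. Gpd2 was lower with miR-24 than with miR-23a (-1.39 ± 0.17; edgeR adjusted p = 0.00016, or 0.0197 without the block). Against miR-27a its call was lost without the block (-1.03 ± 0.17; edgeR adjusted p = 0.00185, or 0.0874).

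Several marker lists of other cell types had higher mean sums with miR-24 than in control libraries, and none was tested. With miR-24 and in control, these were 65 and 34.7 CPM for dendritic cells, 22.2 and 16.1 for CD8 T cells, and 9.71 and 6.77 for myeloid cells. Erythroid markers had 5.42 and 3.48 CPM, B cell markers 3.58 and 2.80, granulocyte markers 0.712 and 0.427, and fibroblast markers 0.335 and 0.049. NK cell markers were at 0 in both. The 6 dendritic cell markers summed to 16.3 to 50.6 CPM in control libraries and 39.9 to 91.0 CPM with miR-24, which overlapped. Most of this sum was Batf3, at 23.5 ± 9.45 and 51.0 ± 22.0 CPM. Batf3 is also expressed by activated T cells. The other markers had means, with miR-24 and in control libraries, of 10.1 and 8.04 CPM for Xcr1 and 1.58 and 1.59 for Itgax. They were 1.15 and 1.05 CPM for Siglech, 1.09 and 0.494 for Zbtb46, and 0.174 and 0 for Flt3. The libraries came from cells sorted as live, YFP+ and CD4+, and the part of any other cell type in the member results was not tested. With Rn45s left out before scaling, the same 7 members were called with miR-24 against control. In bulk RNA, fewer cells of a type and less RNA per cell cannot be told apart.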

How the data were processed

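Each of the 16 libraries has 1 deposited file of raw read counts for 23337 gene symbols, with 5 summary lines that were left out. Per the labels' protocols, 1 ng of RNA was amplified and sequenced as single 50-base reads. Per the submitters' processing notes, Bowtie2, TopHat and DESeq were used with the mm10 build. The counter, annotation and strand setting are not given in the sources used here. Groups and replicate numbers come from the sample titles.

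The count model was edgeR 4.0.16 under R 4.3.3 (12952 genes kept by filterByExpr; TMM scaling; group plus replicate number as a block; all 16 libraries; robust quasi-likelihood test, two-sided, Benjamini-Hochberg adjustment over all genes, threshold 0.05). The fit leaves 9 residual degrees of freedom and a biological coefficient of variation of 0.290, against 12 and 0.389 without the block. CPM use TMM-scaled library sizes. The SE was derived from the fold change and its F statistic. The fit with the block was also run on simulated counts in which libraries of the same number shared an effect. That run cannot show whether the numbers pair the real libraries. DESeq2 1.42.0 and limma 3.58.1 were alternatives, with other scalings, filters and sets of libraries.

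The block was used because the comparison was set to carry it. Whether the numbers pair libraries was checked by correlating deviations from group means over the 4746 genes whose mean log2-CPM exceeded 5. All 4 correlations passed 0.1 for control with miR-27a (lowest 0.198), miR-23a with miR-24 (0.350) and miR-23a with miR-27a (0.257). For control with miR-23a (-0.12), control with miR-24 (0.0304) and miR-24 with miR-27a (-0.0072), 3 of 4 did. A value without the block therefore stands beside each member's call.

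The 34 members and the lists were chosen with earlier results of these data known. The opposite directions of Pcx and G6pdx with miR-24 were among those results. All members may be named, with values per library for those called against control. Hk1 and Eno3 were given per library because of calls between mimics. Up to 3 called genes per related list and comparison are named. Seed sites were read from GENCODE M21 transcripts, and 11703 of the tested genes matched by name and 1078 by an older symbol in RefSeq. The matches of 50-base stretches describe the annotation, not the authors' counting.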

Additional observations from a re-analysis of the deposited data

Results flagged for a closer look

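In each group of 4 libraries, the highest and lowest library of each member were compared with the rest by Dixon's test on log2-CPM. Of 136 groups, 6 held a library that stood apart (4.41%), and chance marks about 1 in 20. Slc2a1 was at 224 CPM in control replicate 2 and at 143 to 152 CPM in the other control libraries. Hk2 was at 106 CPM in control replicate 4 and at 48.8 to 53.9 CPM in the others. Gpi1, the isomerase after hexokinase, was at 81.9 CPM in miR-24 replicate 1 and at 191 to 205 CPM in the other miR-24 libraries. Aldoc was at 7.90 CPM in miR-27a replicate 4 and at 2.51 to 2.82 CPM in the others. In the shallow control replicate 1, Taldo1 was at 0 CPM, against 12 to 20.7 CPM in the other control libraries, and Pdha1 was at 0 CPM, against 34.4 to 50.9 CPM. A level of up to 48.8 CPM is allowed there.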

How the results depend on the processing

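Without the replicate block, the members called were 2 for miR-24 against control, 0 for miR-27a against control, 2 for miR-24 against miR-23a, 2 for miR-24 against miR-27a and 2 for any difference; control replicate 1 left out as well gave 2, 0, 2, 1 and 2. With all 4 libraries numbered 1 left out, an alternative chosen after seeing the data, 0 were called for miR-27a against control and 2 each for miR-24 against miR-23a and miR-27a. DESeq2 called 3 for miR-27a against control and 2 for miR-27a against miR-23a, and limma 4 for miR-24 against control and 1 for miR-27a against miR-23a. Over all genes DESeq2 called 951 of 11947 and 703 of 12449 in its 2 comparisons, and limma 411 and 523 of 12952. Fitting only the 2 groups compared gave 12 for miR-27a against control, 2 for miR-24 against miR-27a and 1 for miR-27a against miR-23a. Over all genes such fits called 1883 of 11255, 148 of 11960 and 428 of 11938. The cause was not tested for any of these. No fold change of a called member reversed in any alternative run.

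Leaving out 1 library at a time gave 2 to 9 members for miR-24 against control, 0 to 4 for miR-27a against control, 2 to 7 for miR-24 against miR-23a, 2 to 6 for miR-24 against miR-27a, 0 to 1 for miR-27a against miR-23a, 3 to 10 for any difference, and 0 to 0 for miR-23a against control. For miR-24 against control the count was 2 without miR-24 replicate 3 or control replicate 3, 3 without miR-24 replicate 2 or control replicate 4, and 4 without miR-24 replicate 4. For miR-27a against control it was 0 without miR-27a replicate 1 or 3 or control replicate 3 or 4, 2 without miR-27a replicate 4, and 4 without control replicate 2. For miR-24 against miR-23a it was 2 without miR-23a replicate 1 or 4 or miR-24 replicate 1, 2 or 3, and 7 without miR-24 replicate 4. For miR-24 against miR-27a it was 2 without miR-24 replicate 2 or 3 or miR-27a replicate 1, 2 or 3, and 3 without miR-24 replicate 1. For miR-27a against miR-23a it was 1 without miR-23a replicate 4, miR-24 replicate 1 or 4, or control replicate 2 or 4. For any difference it was 3 without miR-24 replicate 2 or 3 or miR-27a replicate 2 or 3, and 10 without control replicate 2.

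Over all genes, miR-24 against control had 591 calls with the block (300 higher, 291 lower), 110 without it and 1029 with DESeq2; RLE scaling gave 359 higher and 222 lower. For miR-27a against control these were 398, 22 and 951, with 1883 from its 2 groups alone, and for miR-23a against control 55, 17 and 357. For miR-24 against miR-23a they were 697, 142 and 1068, for miR-27a against miR-23a 382, 71 and 703, and for any difference 1254 and 251. For miR-24 against miR-27a they were 572 (233 higher, 339 lower), 114 and 1005, while RLE scaling gave 299 and 266 and upper-quartile scaling 323 and 274. Leaving out 1 library moved the count to 123 (control replicate 3) to 1490 (miR-24 replicate 1) for miR-24 against control, 51 (control replicate 3) to 1010 (control replicate 2) for miR-27a and 12 (control replicate 3) to 334 (control replicate 2) for miR-23a against control, so the background shares move too. Between mimics it moved to 262 to 796, 190 to 737 and 127 to 548 for miR-24 against miR-23a, miR-24 against miR-27a and miR-27a against miR-23a. The depth of control replicate 1 limits every member under 48.8 CPM.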
